A study of Mus musculus with 4 samples.

Results

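The genes described here encode the translation initiation factors of the mouse, measured on Affymetrix expression arrays in cultured fetal liver progenitor cells. They were taken as every gene whose platform symbol starts with Eif1 to Eif6, without the Eif2ak kinases and the sex-linked Eif2s3x and Eif2s3y, and only where a probe set names a single gene. The brightest such probe set stood for each gene. This gave 41 genes out of 18193 with a single-gene probe set, and together they had 115 probe sets. Of the 41, 40 exceeded a signal floor of 100.001 on at least 1 array and 39 on all 4. The gene left out was Eif4a3, whose single-gene probe set gave signals of 2.5 to 13.4. Genes without a single-gene probe set are not analysed here.

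All 4 cultures came from p53-/- fetal liver and shared the same medium, with 10% fetal bovine serum, EGF at 20 ng/ml and HGF at 50 ng/ml. Per the labels, 1 culture was non-transformed and the others were transformed with H-RasV12 (a constitutively active small GTPase), c-Myc (a transcription factor of growth genes) or myr-Akt (the kinase AKT1, sent to the membrane by a myristoyl tag). Each condition is 1 array. Nothing in the labels says how the oncogenes were introduced or how many clones a culture holds. No spread between replicates exists, so no difference below was set against replicate error, and no p-value is given.

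Initiation factors bring the small ribosomal subunit, the initiator tRNA and an mRNA together at a start codon. eIF2 carries the initiator tRNA as a GTP complex and eIF2B recharges it, while eIF1 and eIF1A hold the scanning subunit open and eIF3 forms a scaffold on it. eIF4E binds the mRNA cap, eIF4G bridges cap and ribosome, eIF4A unwinds the leader, and 4E-binding proteins keep eIF4E from eIF4G until mTORC1, which acts below AKT, phosphorylates them. eIF5 and eIF5B act at start codon recognition and subunit joining. Several of these genes, Eif4e among them, are known targets of MYC in other cells.

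Throughout, H-RasV12, myr-Akt and c-Myc stand for the arrays that carry these labels. As a check of the labels, Myc itself read 2285 in the non-transformed culture, 1747 for H-RasV12, 639.7 for myr-Akt and 420.6 for c-Myc, while Akt1 read 1870, 2760, 2834 and 2991 in the same order. Myc was thus lowest under the label that names it, and Akt1 was highest for c-Myc rather than for myr-Akt. The sources do not state if the probe sets cover the introduced genes, so directions for c-Myc and myr-Akt are only as sure as their labels. Of 11 hepatoblast markers, 5, 9, 3 and 3 exceeded the floor on the 4 arrays in that order, and their summed signals were 7954, 24346, 3699 and 3814. Alb, Afp, Ttr and Hnf4a exceeded the floor for H-RasV12 alone, Foxa2, Dlk1 and Krt18 did on all 4 arrays, and Prox1 and Tbx3 on none. Dlk1 was highest for c-Myc, at 1898 against 262.4 for H-RasV12. Of 6 biliary and progenitor markers, 5, 4, 4 and 3 exceeded it, with summed signals of 7712, 13668, 13795 and 7574. Of 10 mesenchymal and stellate markers, 9, 9, 7 and 6 exceeded the floor, with summed signals of 132012, 89574, 80604 and 67709. Of 5 mesothelial markers, 5, 4, 5 and 5 did, with summed signals of 30866, 9792, 20029 and 18791. Of 7 endothelial markers at most 1 exceeded the floor, and of 6 blood cell markers at most 2. These marker levels differed along with the comparisons below, and their part in the results was not tested. RNA from a whole culture cannot tell a changed cell mix apart from a changed RNA amount per cell.

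Most initiation factor genes gave their lowest signal in the non-transformed culture, by modest amounts. Of the 40 genes, 26 (65%) were lowest on the non-transformed array, against 33.3% of all 10679 genes tested, and the same 26 were higher on all 3 arrays of transformed cultures. Over all genes tested, 29.3% were higher on all 3. The 3 comparisons share the non-transformed array, so they are not independent of one another. The highest signal was in myr-Akt for 16 genes (40%, against 23.9% of all genes), c-Myc for 15 (37.5% against 22.7%), H-RasV12 for 6 (15% against 22.6%) and the non-transformed culture for 3 (7.5% against 30.8%).

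The median log2 difference from the non-transformed array over the 40 genes was 0.14 for H-RasV12, 0.34 for myr-Akt and 0.30 for c-Myc. Over all genes tested it was 0.003, -0.02 and 0.00. For H-RasV12, 30 of the 40 genes were higher by any amount (50.2% of all genes tested). For myr-Akt 32 were higher (46.7% of all), and for c-Myc 34 (47.8% of all). The median was largest for myr-Akt, with c-Myc close behind.

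Few of the differences were large. Against non-transformed, 0 of the 40 genes were at least 2-fold higher for H-RasV12 (2.08% of all genes tested) and 1, Eif5a2, was at least 2-fold lower (6.27% of all). For myr-Akt 2 genes, Eif1a and Eif4e, were at least 2-fold higher (4.9% of all) and 0 lower (12.7% of all). For c-Myc only Eif1a was at least 2-fold higher (4.42% of all) and 0 were lower (11.3% of all).

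At 1.5-fold, 3 of the 40 genes were higher for H-RasV12 (8.87% of all genes tested) and 1 lower (13.7% of all). For myr-Akt 13 were higher (16.3% of all) and 1 lower (22.5% of all), and for c-Myc 11 were higher (15.3% of all) and 1 lower (20.4% of all). As a share of the 40 genes, those higher were 7.5% for H-RasV12, 32.5% for myr-Akt and 27.5% for c-Myc. The 11 genes higher for c-Myc were all among the 13 for myr-Akt. Both calls share the non-transformed array, and the same overlap over all genes tested was not counted. Between these transformed arrays, 4.53% of all genes were at least 1.5-fold higher for myr-Akt and 6.19% lower. Eif1a, Eif2b4 and Eif4e, 7.5% of the 40, were at least 1.5-fold higher in all 3 comparisons, against 3.21% of all genes. Within 1.5-fold in all 3 were 25 of the 40 (62.5%), against 48.3% of all.

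Initiation factor genes are bright, which bears on these shares. Of the 40, 38 had a mean signal of at least 1000, as had 4664 of all genes tested. Among those bright genes 7.98%, 20.1% and 17.6% were at least 1.5-fold higher for H-RasV12, myr-Akt and c-Myc, and their median differences were 0.08, 0.11 and 0.09. The 38 members at that brightness had medians of 0.15, 0.36 and 0.31. Higher by any amount were 58.6%, 56.8% and 57.1% of the bright genes, and 78.9%, 84.2% and 86.8% of the 38 members. The brightness limit was chosen after the values were seen.

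**Figure D1:**
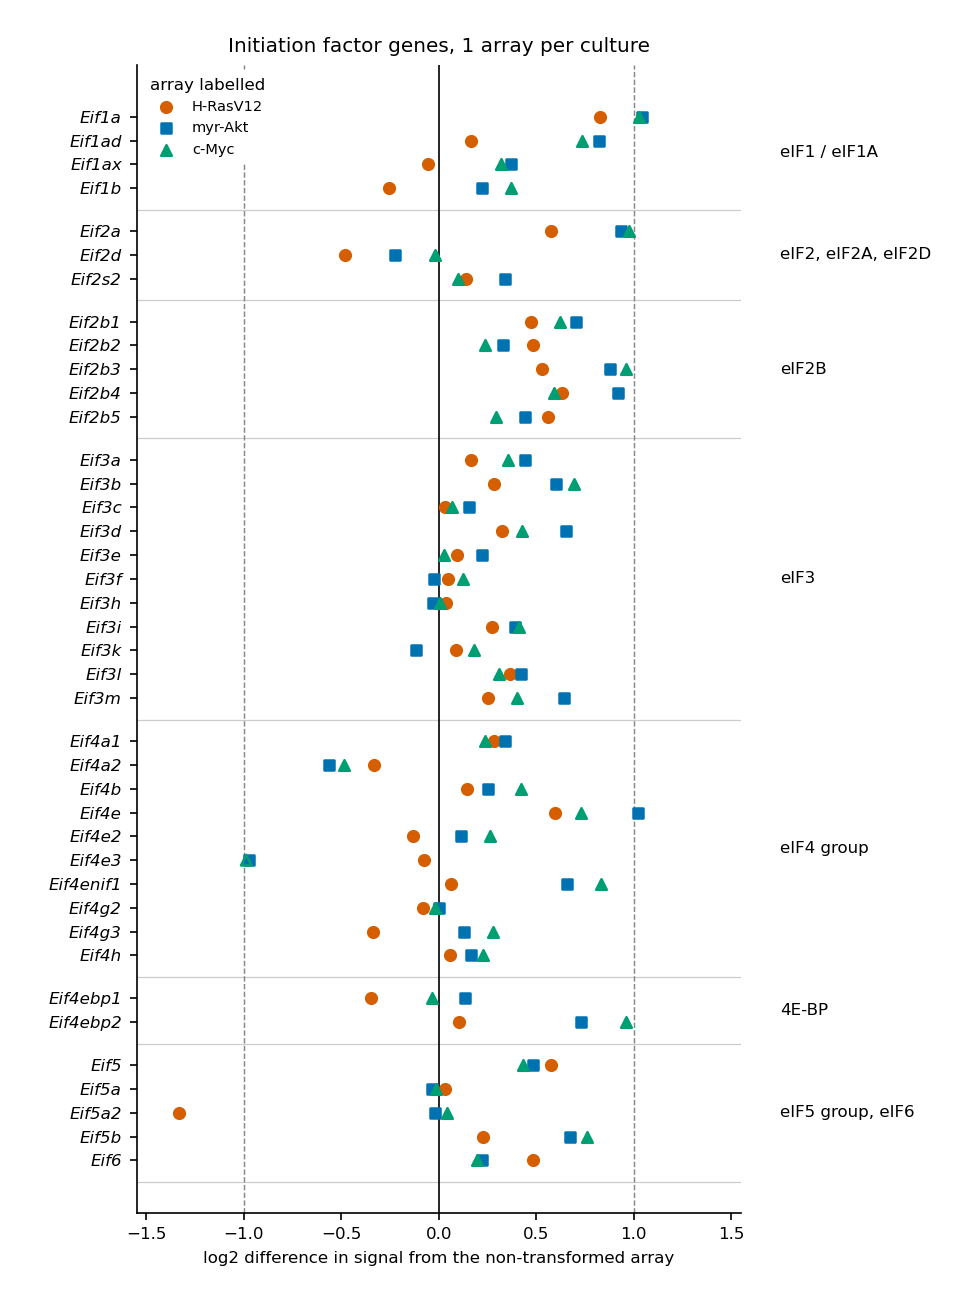
The log2 difference in signal from the non-transformed array is plotted for each of 40 initiation factor genes, grouped by role, with circles for H-RasV12, squares for myr-Akt and triangles for c-Myc, 1 array each. Dashed lines mark 2-fold, and the open triangle of Eif4e3, which overlaps its square, is a bound. Most points lie right of 0, as do all those of the 5 eIF2B genes, and Eif5a2 for H-RasV12 lies farthest left at -1.33.

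**Figure D2:**
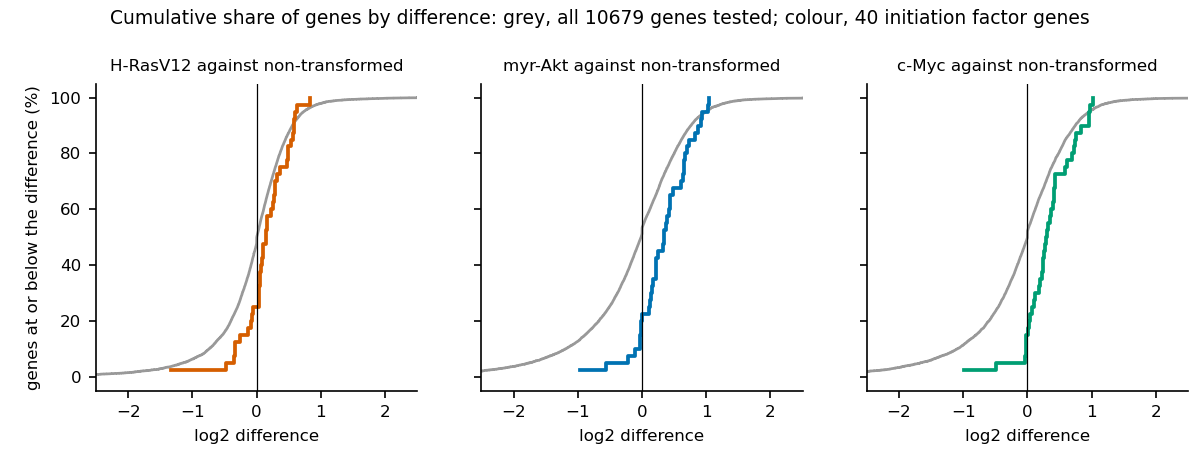
Each panel gives, for 1 comparison with the non-transformed array, the percentage of genes at or below a given log2 difference, for all 10679 genes tested (grey) and the 40 initiation factor genes (colour). The coloured curves lie to the right of the grey over most of the range, with medians of 0.14, 0.34 and 0.30, and are steeper, with few members beyond 2-fold.

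By their brightest probe sets, the 4 genes of the eIF1 and eIF1A group were all higher for myr-Akt and c-Myc (46.7% and 47.8% of all genes tested). They were split for H-RasV12 (50.2% of all higher). The group counts Eif1ad, which is not taken here as a scanning factor. By the mean over probe sets, 3 of the 4 were higher for H-RasV12. Eif1a had signals of 1747 on the non-transformed array, 3096 for H-RasV12, 3601 for myr-Akt and 3557 for c-Myc. That is 1.77, 2.06 and 2.04 times the non-transformed signal, the largest differences upward of any member in each comparison. A second Eif1a probe set gave 1754, 2176, 2614 and 2590, with log2 differences of 0.31, 0.58 and 0.56, so the 2-fold size rests on the probe set that stood for the gene. That probe set is of the _s_at kind, which can bind more than 1 transcript, and Eif1a and Eif1ax are near-identical in sequence, so their signals may be shared.

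Eif1ax, the X-linked eIF1A gene, had signals of 6408, 6161, 8282 and 7992 on the non-transformed, H-RasV12, myr-Akt and c-Myc arrays. It was higher by 0.37 and 0.32 on the log2 scale for myr-Akt and c-Myc, and differed by -0.06 for H-RasV12. The next brightest Eif1ax probe set gave 0.12, 0.85 and 0.85 for H-RasV12, myr-Akt and c-Myc, and a dimmer one 0.24, 0.59 and 0.68. Eif1ad, named for its eIF1A domain, had 808.6, 906.8, 1431 and 1347 in the same order. Its log2 differences of 0.17, 0.82 and 0.74 were not shared by its next brightest probe set, which gave -0.15, 0.08 and 0.04. Eif1b, a close relative of eIF1, had 2088, 1748, 2431 and 2696, lowest for H-RasV12 and highest for c-Myc.

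Among the eIF2 group, Eif2s2, the beta subunit of eIF2, was bright and somewhat higher for myr-Akt, at 16063, 17694, 20335 and 17225 on the non-transformed, H-RasV12, myr-Akt and c-Myc arrays. Its log2 differences were 0.14, 0.34 and 0.10. Its 5 other probe sets gave larger values for myr-Akt, from 0.41 to 1.15, and the mean over probe sets gave 0.66. Eif2a, which encodes eIF2A, a single-chain factor that is no subunit of eIF2, had 766.3, 1144, 1462 and 1506, or 1.49, 1.91 and 1.97 times the non-transformed signal. Its next brightest probe set, with signals of 189.8 to 263.9, gave log2 differences of 0.11, 0.27 and 0.48. Eif2d, an eIF2-independent tRNA delivery factor, went the other way with 1720, 1232, 1472 and 1700, and was lowest for H-RasV12 at a log2 difference of -0.48.

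The 5 eIF2B genes, Eif2b1 to Eif2b5, encode the exchange factor that reloads eIF2 with GTP and that is blocked when eIF2 is phosphorylated under stress. All 5 were higher on all 3 arrays of transformed cultures (29.3% of all genes tested). Their median log2 difference was 0.53 for H-RasV12, 0.70 for myr-Akt and 0.59 for c-Myc. Those were above the medians of 0.14, 0.34 and 0.30 over all 40 genes. At least 1.5-fold higher were 1, 3 and 3 of the 5 (8.87%, 16.3% and 15.3% of all genes tested). For c-Myc it was 1 with a pseudocount and 2 with median scaling or quantile normalization. All 5 stayed higher in all 3 comparisons under 8 of the 9 alternative settings, and under the other, which drops probe sets that can bind several transcripts, the 3 that were left did.

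Within eIF2B, the gamma and delta subunits had the largest differences for myr-Akt. Eif2b3, the gamma subunit, had signals of 1179 on the non-transformed array, 1704 for H-RasV12, 2167 for myr-Akt and 2293 for c-Myc, or up to 1.94 times the non-transformed value. Eif2b4, the delta subunit, had 1121, 1736, 2118 and 1690, and was highest for myr-Akt at 1.89 times. Eif2b1, the alpha subunit, had 1169, 1625, 1904 and 1798.

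The beta and epsilon subunits had another order. Eif2b2 had 2367, 3308, 2978 and 2787, and Eif2b5, which holds the catalytic domain, had 1225, 1806, 1665 and 1499. Both were highest for H-RasV12, with log2 differences there of 0.48 and 0.56. For c-Myc they were higher by 0.24 and 0.29. The next brightest Eif2b2 probe set, at 1522, 2384, 1799 and 2525, was instead highest for c-Myc, so the order of Eif2b2 rests on the probe set. The 5 genes were therefore all higher than in the non-transformed culture but did not rank the 3 transformed cultures alike.

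The 11 eIF3 genes measured were bright. By their brightest probe sets, their medians were close to the 0.14, 0.34 and 0.30 of all 40 members. For H-RasV12 all 11 were higher (50.2% of all genes tested), with a median log2 difference of 0.17, although 1 of them was lower after quantile normalization. At 1.5-fold were 0 of them (8.87% of all). For myr-Akt 8 were higher (46.7% of all) and 3 lower (51.1% of all), with a median of 0.39. When arrays were scaled to a common median, 10 were higher. At 1.5-fold were 3 of them (16.3% of all), but 0 after quantile normalization and 1 with the mean over probe sets. Without probe sets that can bind several transcripts, 2 of 7 reached it. For c-Myc all 11 were higher (47.8% of all), with a median of 0.31, although 1 was lower with the median scaling. Of these, 1 reached 1.5-fold (15.3% of all).

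Eif3b, a core subunit with an RNA recognition motif, had signals of 3204, 3903, 4856 and 5186 on the non-transformed, H-RasV12, myr-Akt and c-Myc arrays, and at 1.62 times was the highest of the eIF3 genes for c-Myc. Eif3d, a subunit that can itself bind the cap of some mRNAs, had 4553, 5700, 7158 and 6119, and was the highest for myr-Akt at 1.57 times. Eif3m had 3853, 4587, 6004 and 5097, and was 1.56 times its non-transformed signal for myr-Akt. Eif3a, the largest subunit, had 11762, 13194, 15985 and 15033. These 4 were lowest on the non-transformed array. The next brightest Eif3a probe set gave log2 differences of 0.07, 0.03 and 0.29. Dimmer ones gave 0.56, 0.84 and 0.82, and 0.79, 0.90 and 0.75, so the size for Eif3a depends on the probe set.

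Among the other eIF3 genes, some were level. Eif3h had 10496, 10751, 10270 and 10525 on the 4 arrays in the same order, and Eif3f had 9601, 9932, 9455 and 10461. Their log2 differences lay between -0.03 and 0.12. Eif3k, a small peripheral subunit, had 5451, 5787, 5034 and 6174, and its log2 difference of -0.11 for myr-Akt was the lowest of the eIF3 genes. By their brightest probe sets, Eif3c and Eif3e differed by at most 0.22, while Eif3i and Eif3l were higher by 0.27 to 0.42, much as Eif3a was.

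The eIF4 group, which selects mRNAs by their cap, held unlike responses. Of its 10 genes above the floor, 5, 8 and 7 were higher for H-RasV12, myr-Akt and c-Myc (50.2%, 46.7% and 47.8% of all genes tested). Their medians were -0.01, 0.15 and 0.25. Eif4e, the cap-binding protein itself, had signals of 5241 on the non-transformed array, 7920 for H-RasV12, 10639 for myr-Akt and 8675 for c-Myc. That is 1.51, 2.03 and 1.66 times the non-transformed signal. The next brightest Eif4e probe set gave 1318, 2305, 2728 and 2466, with log2 differences of 0.81, 1.05 and 0.90, and another gave 0.64, 0.67 and 0.53. A further dim probe set, at 152.2 in non-transformed cells and under the floor for H-RasV12 and c-Myc, went the other way with -0.61, -0.47 and -0.61, of which the first and last are bounds.

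The stretch before a RefSeq start of Eif4e is shown because it holds 2 copies of the E-box CACGTG. This is the site bound by MYC with its partner MAX. The 250 bases before another RefSeq start of Eif4e, chr3:138525941-138526190, hold 0 copies. The stretch shown is the 250 bases before its start on the plus strand of GRCm38.p6, chr3:138527018-138527267, with the E-boxes in capitals. Their first bases lie 228 and 64 bases before the start.
Eif4e: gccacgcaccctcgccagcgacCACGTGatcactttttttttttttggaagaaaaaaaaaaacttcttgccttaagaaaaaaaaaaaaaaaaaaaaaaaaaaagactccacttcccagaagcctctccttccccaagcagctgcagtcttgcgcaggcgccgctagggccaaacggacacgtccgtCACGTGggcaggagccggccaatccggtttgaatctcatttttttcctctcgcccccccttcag

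The relatives of Eif4e differed in other ways. Eif4e3, a cap-binding homologue, had signals of 198.2 on the non-transformed array and 187.9 for H-RasV12, against 101.1 for myr-Akt and 97 for c-Myc, where it was under the floor. It was 1.96 times lower for myr-Akt and at least 1.98 times lower for c-Myc. Its second probe set had 172.3, 148.3, 85.5 and 117.1 and also gave lower values, with log2 differences of -0.22, -0.78 (a bound set by the floor) and -0.56. Eif4e2, a cap-binding homologue linked to translational repression, had 3003, 2738, 3254 and 3609, with log2 differences of -0.13, 0.12 and 0.26. Dimmer Eif4e2 probe sets were higher for H-RasV12, by 0.64 and 0.41, so its direction there depends on the probe set. Eif4e3 is dim, near the floor, and so is less precisely measured than the others.

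The eIF4A helicase genes also parted. Eif4a1, the main form in growing cells, had 18857, 22966, 23898 and 22242 on the non-transformed, H-RasV12, myr-Akt and c-Myc arrays, with log2 differences of 0.28, 0.34 and 0.24. Eif4a2, its close paralogue, had 11641, 9254, 7876 and 8307, and was lower by 1.26, 1.48 and 1.40 times. Eif4a2 was 1 of 3 members (7.5%, against 30.8% of all genes) that were lower in all 3 comparisons, with Eif4e3 and Eif2d. For Eif2d the c-Myc difference was only -0.02 and ran from -0.05 to 0.09 under the alternative settings. For Eif4a2 the log2 differences stayed between -0.61 and -0.31 under every alternative setting. The 3 Eif4a1 probe sets were all higher in all 3 comparisons. Eif4a2 had a single probe set.

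Eif4enif1, which shuttles eIF4E into the nucleus and into processing bodies, had 2017, 2106, 3180 and 3586. It was level for H-RasV12 and 1.58 and 1.78 times higher for myr-Akt and c-Myc. Eif4g3, an eIF4G scaffold, had 1340, 1061, 1464 and 1623, lower than non-transformed for H-RasV12 alone. Eif4g2, an eIF4G relative that lacks the eIF4E site, was level at 21017, 19869, 21065 and 20736. Its next brightest probe set gave 8819, 11565, 12682 and 11406, however, with log2 differences of 0.39, 0.52 and 0.37. Eif4b and Eif4h, cofactors of eIF4A, were higher by 0.06 to 0.42 on the log2 scale.

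Of the 4E-binding proteins, which restrain eIF4E, Eif4ebp2 passed 1.5-fold and Eif4ebp1 did not. Eif4ebp2 had signals of 1382 on the non-transformed array, 1484 for H-RasV12, 2293 for myr-Akt and 2686 for c-Myc. It was 1.66 times higher for myr-Akt and 1.94 times for c-Myc. Its next brightest probe set had 300.8, 492.1, 696.7 and 550.7, and so gave 0.71 on the log2 scale for H-RasV12 where the brightest gave 0.10. Eif4ebp1 had 6339, 4987, 6951 and 6189, and was lower for H-RasV12 by 1.27 times. These are RNA levels, and the phosphorylation that sets the activity of these proteins is not measured by them.

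In the last group, Eif5, which prompts GTP hydrolysis by eIF2 at the start codon, had signals of 5991, 8930, 8389 and 8077 on the non-transformed, H-RasV12, myr-Akt and c-Myc arrays, or 1.49, 1.40 and 1.35 times. It was highest for H-RasV12 by this probe set and some others, but for myr-Akt or c-Myc by the rest. All 5 Eif5 probe sets were higher in all 3 comparisons. Eif6, an anti-association factor of the large subunit, had 3600, 5026, 4203 and 4128, while its dim second probe set, at 259.1, 310.8, 333 and 234.9, was highest for myr-Akt and lower for c-Myc. Eif5b, the GTPase of subunit joining, had 1292, 1512, 2062 and 2189, and was 1.60 and 1.70 times higher for myr-Akt and c-Myc.

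The eIF5A genes encode the only proteins with the modified amino acid hypusine. Eif5a was the brightest member and level by its brightest probe set, at 27172, 27807, 26511 and 26903. A second Eif5a probe set had 5254, 6742, 7853 and 7242, with log2 differences of 0.36, 0.58 and 0.46. Eif5a2, the paralogue with restricted expression, had 502.8 on the non-transformed array, 199.8 for H-RasV12, 496.7 for myr-Akt and 518.3 for c-Myc. It was 2.52 times lower for H-RasV12, the only member at least 2-fold lower in any comparison with non-transformed, and level for the others. Its second probe set had 138, 98.3, 164.9 and 229.2, bound by the floor at -0.46 for H-RasV12, and gave 0.73 for c-Myc.

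The 250 bases before the Eif5a2 start are shown beside those of Eif4e because they too hold 2 E-boxes, while by its brightest probe set the gene stood apart from non-transformed for H-RasV12 alone. They lie on the plus strand of GRCm38.p6 at chr3:28781027-28781276, with the E-boxes in capitals, 142 and 117 bases before the start.
Eif5a2: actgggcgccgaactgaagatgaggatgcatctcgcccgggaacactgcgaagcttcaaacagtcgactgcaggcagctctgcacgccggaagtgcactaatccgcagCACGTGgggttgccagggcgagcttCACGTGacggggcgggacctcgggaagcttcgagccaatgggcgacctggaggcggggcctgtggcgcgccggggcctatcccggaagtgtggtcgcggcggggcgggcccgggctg

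**Figure D3:**
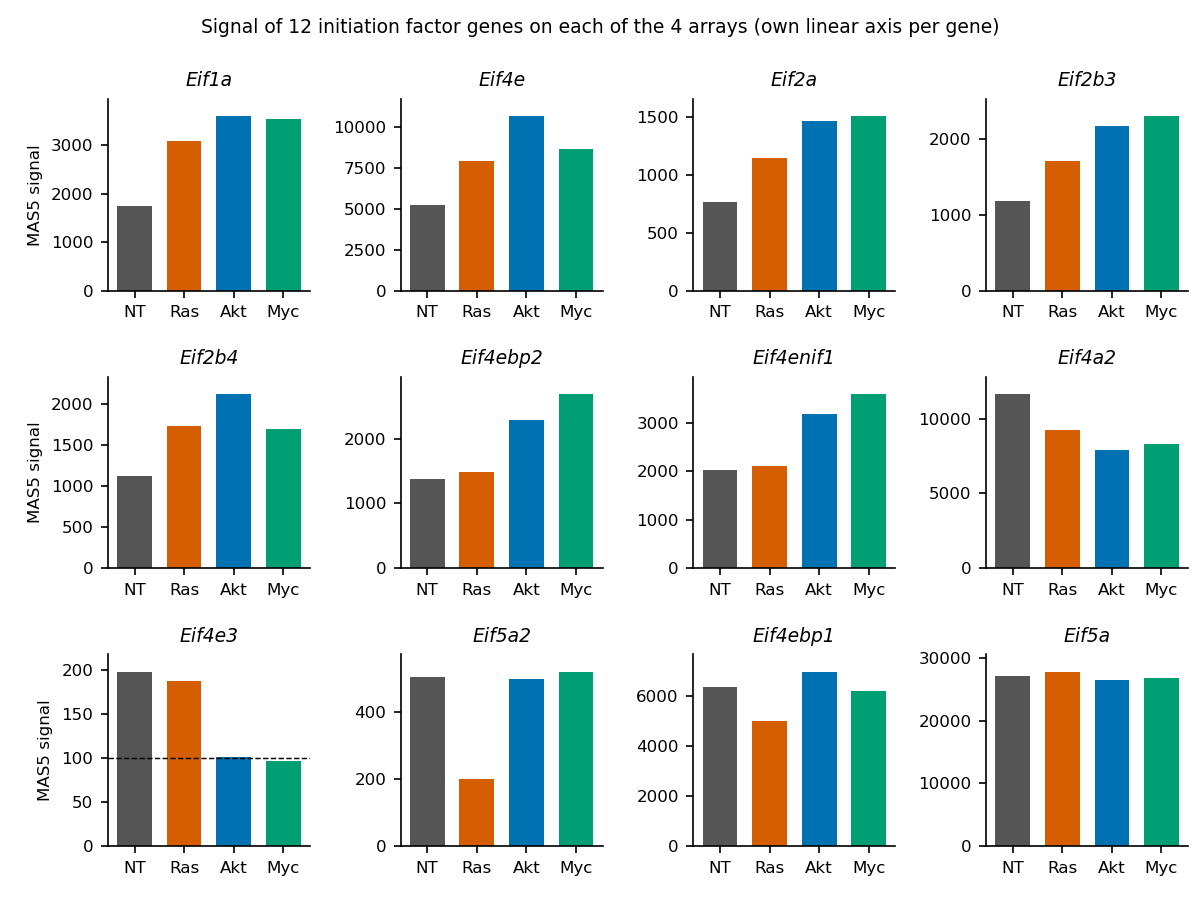
MAS5 signals of 12 initiation factor genes are drawn as bars, 1 array each, for the non-transformed culture (NT) and those labelled H-RasV12 (Ras), myr-Akt (Akt) and c-Myc (Myc), on a linear axis from 0 that differs by gene. Eif1a, Eif4e, Eif2a, Eif2b3 and Eif2b4 are lowest in NT, Eif4a2 is highest there, and Eif5a2 is low only in Ras; the dashed line in the Eif4e3 panel is the floor.

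The transformed cultures were also set against each other, which leaves the non-transformed array out. Between myr-Akt and c-Myc, 0 of the 40 genes differed by 2-fold (1.53% of all genes tested higher for myr-Akt and 2.01% lower) and 0 by 1.5-fold (4.53% higher and 6.19% lower). The log2 differences ran from -0.29 for Eif3k to 0.33 for Eif2b4, with a median of 0.02. For every member, myr-Akt and c-Myc thus lay within 1.5-fold of each other.

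H-RasV12 was mostly below both. Against myr-Akt the median log2 difference was -0.22 (0 over all genes tested), and 30 of 40 genes were lower by any amount (48.8% of all). Among genes of signal 1000 or more, 76.3% of members and 57.1% of all were lower, with medians of -0.22 and -0.07. At 1.5-fold, 4 genes, Eif1ad, Eif4ebp2, Eif4enif1 and Eif5a2, were lower (12.1% of all) and Eif4e3 was higher (17% of all). Of these only Eif5a2 was 2-fold lower (4.38% of all), and 0 genes were 2-fold higher (9.35% of all).

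Against c-Myc the median was -0.14 (0 over all genes tested), and 27 of 40 genes were lower by any amount (49.8% of all). Among genes of signal 1000 or more, 68.4% of members and 56% of all were lower, with medians of -0.14 and -0.05. At 1.5-fold, 5 genes, Eif1b, Eif4ebp2, Eif4enif1, Eif4g3 and Eif5a2, were lower (12.5% of all) and Eif4e3 was higher (15.9% of all). Eif5a2 was 2-fold lower, with a log2 difference of -1.38 (5.11% of all), and 0 genes were 2-fold higher (8.76% of all). Eif4ebp2, Eif4enif1 and Eif5a2 were thus lower for H-RasV12 against both, and Eif4e3 higher, at log2 differences of 0.89 and, as a bound set by the floor, 0.91. The comparisons with myr-Akt and c-Myc share the H-RasV12 array.

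Probe sets of the same gene show how far the choice of probe set sets a value. A further probe set above the floor existed for 26 of the 40 genes. The next brightest gave the same direction as the brightest for 21, 23 and 21 genes in the comparisons of H-RasV12, myr-Akt and c-Myc with non-transformed. The median gap between them was 0.18, 0.15 and 0.20 on the log2 scale, about as large as the median difference for H-RasV12. The widest gaps were 0.87 for Eif5a2 (H-RasV12) and 0.74 and 0.70 for Eif1ad (myr-Akt and c-Myc).

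For myr-Akt and c-Myc, the next brightest probe set gave the higher difference of the pair for most bright genes. Among dimmer genes the split there was close to even. Of 9 members with a mean signal of at least 10000 and a further probe set, 6 were further upward by it for myr-Akt and 7 for c-Myc, and 4 for H-RasV12. Their median log2 difference was 0.22 by the brightest and 0.35 by the next for myr-Akt, and 0.10 and 0.29 for c-Myc. For H-RasV12 it was 0.09 and 0.16. Of the 17 dimmer members, 11 were further upward by the next probe set for H-RasV12 and 9 each for myr-Akt and c-Myc. Their medians by the brightest and the next were 0.14 and 0.12 for H-RasV12, 0.33 and 0.27 for myr-Akt, and 0.32 and 0.51 for c-Myc. This signal limit was chosen after the values were seen.

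**Figure D4:**
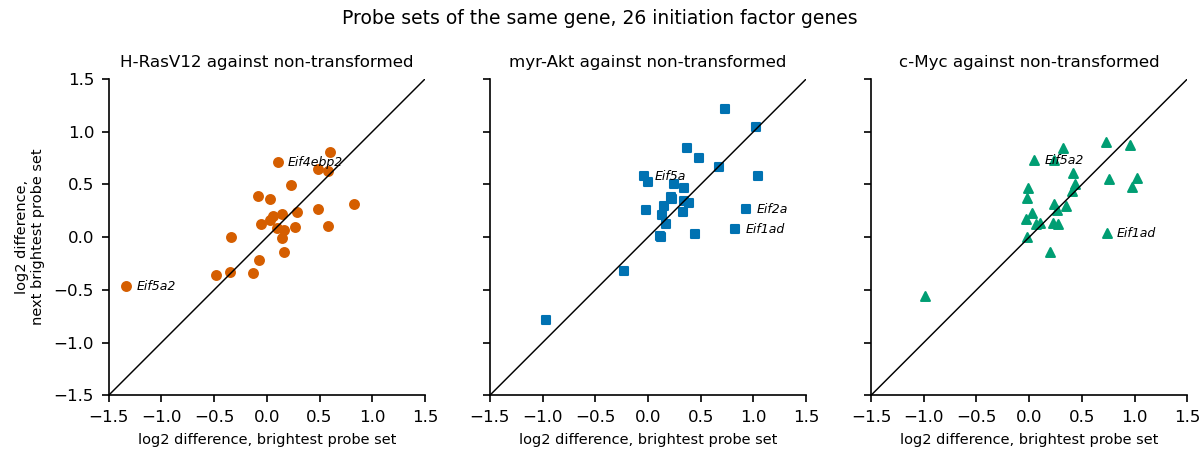
For 26 initiation factor genes, the log2 difference from the non-transformed array by the brightest probe set (horizontal) is plotted against that by the next brightest (vertical), with the line of equality; genes whose probe sets differ by 1.5-fold or more are named. Most points lie near the line and right of or above 0, and Eif5a2, Eif1ad, Eif2a, Eif4ebp2 and Eif5a lie farthest from it.

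Promoter sequence was available for 32 of the 41 genes in the RefSeq-derived table for GRCm38.p6, which gives 250 bases before to 50 after each start. The E-box CACGTG, which reads the same on both strands, was found for 9 of the 31 genes tested that matched: Eif1b, Eif3a, Eif3f, Eif3k, Eif4a1, Eif4e, Eif4h, Eif5a and Eif5a2. That is 29%, against 12.2% of all genes tested that matched. By window it was 25.6% of 43, against 10.2% of the windows of all genes tested, and windows of 1 gene can overlap and count the same E-box again, as they do for Eif5a.

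The genes with an E-box had lower medians, and the highest single value among the matched genes lay with them for myr-Akt only. Their median log2 difference from non-transformed was 0.06, 0.17 and 0.23 for H-RasV12, myr-Akt and c-Myc, while the 22 genes without had 0.20, 0.46 and 0.41. For H-RasV12 those with it ran from -1.33 (Eif5a2) to 0.60 (Eif4e) and those without from -0.48 to 0.63. For myr-Akt the highest value was 1.02 (Eif4e) with it and 0.93 without. For c-Myc the order was reversed, at 0.73 (Eif4e) with it and 0.97 without. Of the 4 eIF2B genes that matched, none held CACGTG in these windows. The genes whose windows held it included Eif3f and Eif5a, level by their brightest probe sets, but a second Eif5a probe set gave 0.36, 0.58 and 0.46. Eif3a, Eif4a1, Eif4h and Eif5a, all with an E-box, had mean signals over 10000, as had Eif2s2 and Eif3c without one. For members that bright, medians were lower by the brightest probe set than by the next (0.10 and 0.29 for c-Myc). The part of brightness in these medians was not tested. The motif TGATGNAA, read on either strand and part of sites bound by ATF4, was in 0 of the 43 windows of the members and in 2.13% of those of all genes tested. A match here is a run of letters, not a measured site.

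Other genes of protein synthesis were taken from fixed lists. Over all genes tested, 8.87%, 16.3% and 15.3% were at least 1.5-fold higher for H-RasV12, myr-Akt and c-Myc. At least 1.5-fold lower were 13.7%, 22.5% and 20.4%. Of 9 elongation factor genes, 0, 3 and 2 were at least 1.5-fold higher for H-RasV12, myr-Akt and c-Myc, 0 were lower, and the medians were 0.11, 0.37 and 0.38. Eef1e1, a subunit of the tRNA synthetase complex, had signals of 5610, 7133, 9438 and 8395 on the non-transformed, H-RasV12, myr-Akt and c-Myc arrays. Of 19 cytosolic tRNA synthetase genes, 2, 5 and 5 were at least 1.5-fold higher and 0 lower (medians 0.31, 0.40 and 0.27). The largest single difference among them was that of Farsa for c-Myc, with signals of 914.2, 1378, 1740 and 1859 on the 4 arrays. These lists thus had medians close to those of the initiation factors for myr-Akt and c-Myc.

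Of 7 termination and recycling genes, 1, 3 and 2 were at least 1.5-fold higher and 0, 1 and 1 lower, with medians of 0.40, 0.50 and 0.22. Abce1, the ribosome recycling ATPase, had 3779, 5316, 7107 and 6218, and Gspt2, a release factor, had 205.4, 419.6, 98.9 and 90.2, higher for H-RasV12 and under the floor for the others. Of 8 mTORC1 genes, 1 (Deptor, for H-RasV12, at 0.81) reached 1.5-fold, and their medians were 0.17, -0.10 and -0.08. Of 6 genes for eIF2 kinases and eIF2 phosphatase subunits, 0 passed 1.5-fold for H-RasV12 or myr-Akt. For c-Myc Eif2ak4, the kinase GCN2, was higher (0.75) and Ppp1r15a, the stress-induced phosphatase subunit, lower (-0.61).

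Of 11 cap, poly(A) and S6 kinase regulators, 0, 2 and 3 were at least 1.5-fold higher and 1, 0 and 0 lower, with medians of 0.08, -0.02 and 0.16. Larp1, which binds mRNAs of the translation machinery, had 2694, 3650, 4130 and 4494, lowest in the non-transformed culture. Of the hypusine enzymes that modify eIF5A, Dohh had 599, 943.6, 978.5 and 983.7, at least 1.5-fold higher in all 3 comparisons, and Dhps differed by 0.10, 0.31 and 0.38. The mitochondrial initiation factor genes Mtif2 and Mtif3 were higher by 0.17 to 0.29, within 1.5-fold throughout.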

How the data were processed

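RNA from 4 cultures was measured on 1 single-colour array each. The authors deposited 1 linear intensity per probe set and array, computed by MAS5 according to the submitters' processing notes. No source used here gives its version, a filter or a genome build. All 4 arrays had a mean of 500.003 once 2% of values was trimmed from either end, a shared scale. With 1 array a group, the number of arrays limits the precision.

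Signals were set to a floor of 20% of that mean and log2 was taken. Of 45101 probe sets, 64 were controls; 34945 had 1 gene symbol, 932 several and 9160 none. The brightest single-gene probe set stood for each gene, and genes above the floor on at least 1 array were tested, that is, counted. Calls were log2 differences of 2-fold or 1.5-fold. Symbols come from the platform annotation, and all 41 members matched the RefSeq gene table of GRCm38.p6. Members, lists and comparisons were chosen with earlier results of these data known. Every member could be named; other genes came from the gene lists (up to 3 of the largest differences each), the cell type markers, Myc and Akt1. Python 3.11.15, pandas 2.3.3 and numpy 2.4.6 were used. The 8 alternatives set first cover floor, pseudocount, filter, scaling and probe set choice; a limit to genes of signal 1000 or more was added later.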

Additional observations from a re-analysis of the deposited data

How the results depend on the processing

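The median log2 differences of the members from non-transformed kept their sign and moved by under 0.1 under every alternative, with ranges of 0.11 to 0.23 for H-RasV12, 0.29 to 0.39 for myr-Akt and 0.27 to 0.37 for c-Myc. Counts of calls moved more. With the mean over probe sets, the genes at least 1.5-fold higher were 1 for H-RasV12, 8 for myr-Akt and 7 for c-Myc, and 0 were 2-fold higher for myr-Akt or c-Myc or 2-fold lower for H-RasV12. Scaled to a common median, 5 were 1.5-fold higher for H-RasV12. With quantile normalization, 1 was 2-fold higher for myr-Akt and 0 for c-Myc, and 2 were 1.5-fold lower for myr-Akt. Without probe sets that can bind several transcripts, which left 31 members, 1 was 2-fold higher for myr-Akt and 0 for c-Myc. With a pseudocount instead of a floor, 0 were 2-fold higher for c-Myc, 0 were 1.5-fold lower for myr-Akt and 0 were 2-fold lower for H-RasV12 against myr-Akt. With the floor at 40%, 0 were 1.5-fold lower for myr-Akt or c-Myc, and with it at 10%, 1 was 2-fold lower for c-Myc (Eif4e3). Among genes of signal 1000 or more, which leaves out Eif5a2 and Eif4e3, 0 were lower at 1.5-fold in any comparison with non-transformed, and 0 were 2-fold lower for H-RasV12 against non-transformed, myr-Akt or c-Myc. No called difference of a single gene from non-transformed changed sign. Signs of single genes between the transformed arrays were not checked under the alternatives. No paired analysis was possible because each group has 1 array and the result comes from no test. No replicate could be left out for the same reason.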

Other observations

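Several probe sets outside the chosen genes measure other initiation factors. The brightest probe set shared by Eif3j1 and Eif3j2, near-identical genes of a loosely bound eIF3 subunit, had signals of 4771 on the non-transformed array, 6094 for H-RasV12, 8161 for myr-Akt and 7724 for c-Myc. That is a higher signal than non-transformed in each transformed culture. A probe set named for both Eif4a3, an exon junction helicase, and Gm5576 had 4175, 5927, 6468 and 5935. One named for both Ankhd1 and Eif4ebp3 had 500.7, 813.1, 873.9 and 761.2, and its signal cannot be given to either gene. The brightest probe set of Eif2s3x, the X-linked gamma subunit of eIF2, had 6377, 9083, 9294 and 9263, and that of its Y-linked counterpart Eif2s3y 534.5, 559.3, 944.8 and 642.5. All of these were lowest on the non-transformed array.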
